A study of Homo sapiens with 18 samples.

Results

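The 10 genes described here encode actin, the proteins that bind, bundle or regulate actin filaments, and the proteins that anchor them: TAGLN, TPM1, TPM2, MYL9, CNN2, ACTN1, VCL, FLNA, CALD1 and ACTB. They were chosen by their place in the actomyosin cytoskeleton, out of 26485 gene symbols in the counts, and TAGLN was picked for its rise with siLonp1. The differences of TAGLN between siLonp1 and scramble siRNA are therefore given as a description with no test, and counts for siLonp1 are over the other 9 genes. All 10 were among the 12832 genes that passed the filter on low counts, and each of the 10 was above 1 CPM (counts scaled to the size of the library) in all 18 libraries.

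RNAseq was performed on SW620 cells, a human colon cancer line, after transfection with a scramble siRNA or with siRNA against Lonp1 (siLonp1), a mitochondrial protease. The Ctrl cells of each arm stayed at 37 °C, the HS cells spent 1 h at 42 °C, and the HS+REC cells had the same heat shock and then 1 h of recovery at 37 °C. This gave 6 groups of 3 libraries, which the study describes as independent biological replicates of 1 line, with 30815860 to 47279297 counts per library. Which of the study's Lonp1 siRNAs was used for RNAseq is not given in the sources used here, so loss of Lonp1 and other effects of the siRNA itself cannot be told apart. LONP1, the silenced gene, was at 197 to 233 CPM in the 9 scramble libraries and at 11.5 to 28.9 CPM in the 9 siLonp1 libraries.

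As background, transcription of many cytoskeletal genes depends on serum response factor (SRF), which binds a short DNA element called the CArG box. When globular actin is low, the cofactors MRTFA and MRTFB leave it, enter the nucleus and join SRF, so that genes for actin and its partners follow the state of the filaments themselves. A second class of SRF partners, the ternary complex factors ELK1, ELK3 and ELK4, links SRF to growth factor signalling and to the immediate early genes. TAGLN, which encodes transgelin (SM22), is best known as a smooth muscle gene and is also expressed by other adherent cells.

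The sequence upstream of the start sites was read from RefSeq (GRCh38.p14), since the CArG box is the element on which SRF acts. Windows were found for 7 of the 10 genes, TPM1, TPM2, CNN2, ACTN1, VCL, FLNA and CALD1, and not for TAGLN, MYL9 and ACTB. The 250 bases before each start were searched for the 10-base CArG box, which reads as the same motif on both strands. It was found once in CNN2, once in FLNA and once before an alternative start of ACTN1, that is in 3 of the 14 windows of these genes (21.4%), against 407 of all 35116 RefSeq windows (1.16%). The 10 genes were grouped under the name of actin and SRF, so the choice of genes can itself raise this share. CALD1, ACTN1 and TPM2 have several windows each, so the windows are not independent units. The shares were not compared by a test. The 3 stretches are shown 5′ to 3′ on the gene's strand, in lower case with the CArG box in capitals. They stop short of the start, since the bases of each window nearest the start are left off. They lie at chr19:1026358-1026557 on the plus strand for CNN2, at chrX:154374685-154374884 on the minus strand for FLNA and at chr14:68977617-68977816 on the minus strand for ACTN1.
CNN2: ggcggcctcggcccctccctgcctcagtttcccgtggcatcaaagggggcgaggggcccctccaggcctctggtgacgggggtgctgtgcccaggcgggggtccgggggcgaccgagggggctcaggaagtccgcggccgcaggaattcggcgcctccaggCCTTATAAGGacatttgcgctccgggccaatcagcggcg
FLNA: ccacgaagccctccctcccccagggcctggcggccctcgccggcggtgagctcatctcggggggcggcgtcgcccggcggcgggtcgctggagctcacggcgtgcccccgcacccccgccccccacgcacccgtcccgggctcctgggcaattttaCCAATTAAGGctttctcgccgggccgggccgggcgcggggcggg
ACTN1: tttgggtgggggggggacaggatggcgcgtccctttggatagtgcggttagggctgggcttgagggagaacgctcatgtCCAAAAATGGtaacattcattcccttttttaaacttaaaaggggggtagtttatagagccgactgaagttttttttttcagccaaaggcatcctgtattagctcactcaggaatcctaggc
The first base of the box lay 89 bases before the start in CNN2, 94 in FLNA and 171 in ACTN1. A match of letters is a description and shows no binding, and a window without one says nothing about SRF at that gene.

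At 37 °C with scramble siRNA the 10 genes spanned a wide range of levels. ACTB, which encodes the cytoplasmic beta actin, stood highest at 4187 CPM per kb of its canonical transcript, followed by CNN2 at 261 CPM per kb. TPM2, FLNA, ACTN1, VCL and TPM1 lay between 103 and 150 CPM per kb, and CALD1 was at 25.8 CPM per kb. MYL9 and TAGLN were lowest at 5.32 and 4.72 CPM per kb. Their canonical transcripts, of 2786 and 3786 bases, are longer than the median of their coding transcripts, and per kb of that median length the levels were 14.5 and 14.6 CPM, still the lowest of the 10, with the order between MYL9 and TAGLN turned. On that scale CNN2 was at 678, FLNA at 224, ACTN1 at 162, TPM2 at 160 and CALD1 at 67.5 CPM per kb, so FLNA and ACTN1 stood above TPM2 and the order of these genes depends on the length taken. ACTB shares near-identical sequence with ACTG1 and with pseudogenes, so its counts are uncertain to the extent that reads could be split among them.

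**Figure D1:**
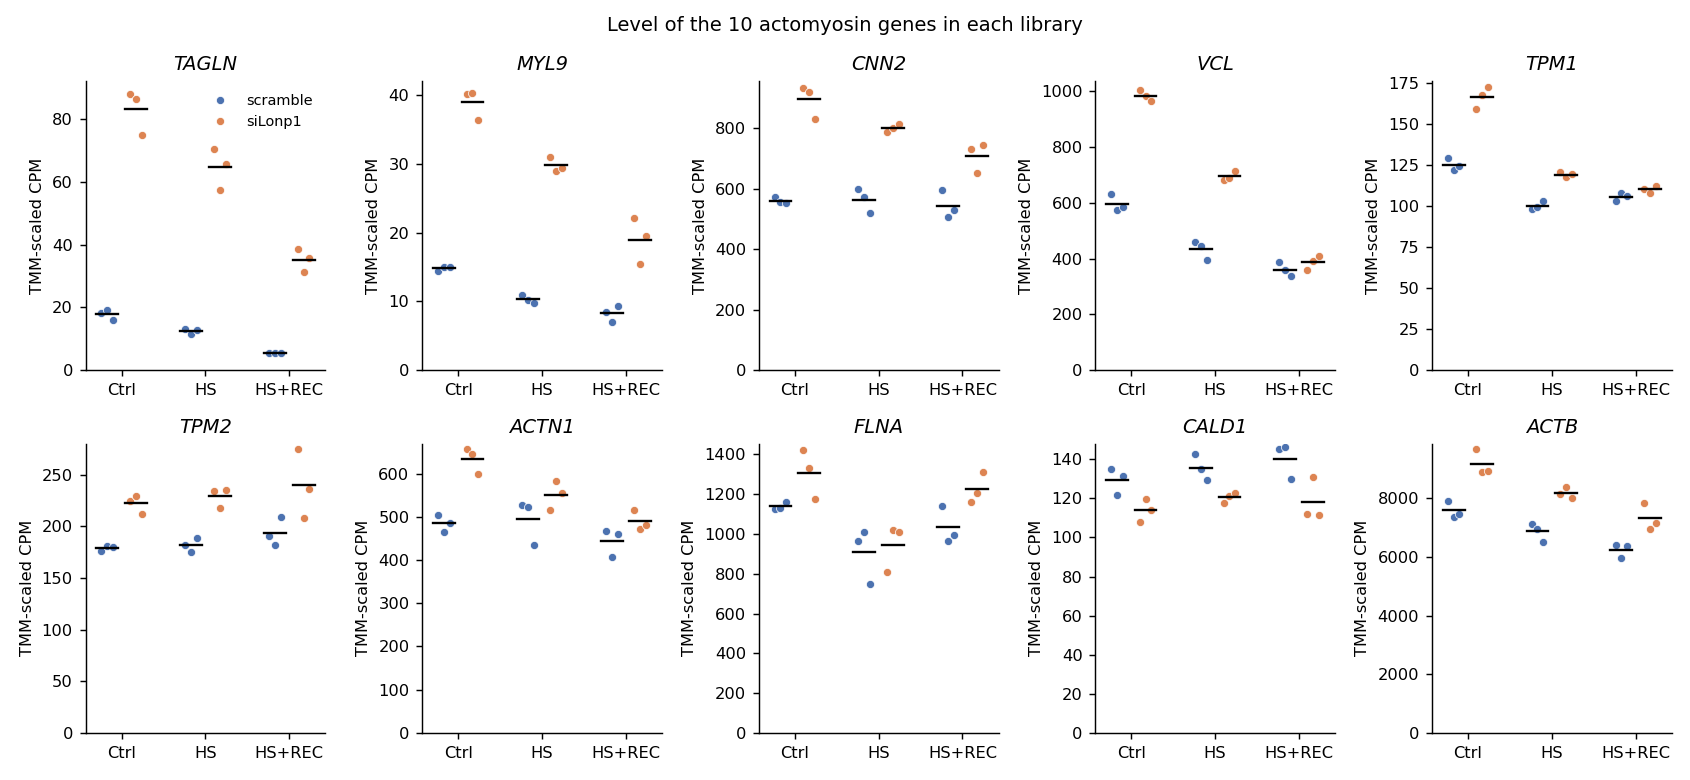
Level of each of the 10 genes in the 18 libraries, in TMM-scaled CPM on a linear axis from 0. Each point is a library, coloured by siRNA, and each black line is the mean of the 3 libraries of a group; in TAGLN and MYL9 all siLonp1 libraries lie above all scramble libraries of the same condition and the level falls from Ctrl to HS to HS+REC.

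TAGLN, an actin cross-linking protein of the calponin family, lies at chr11:117199370-117207464 of hg38 on the plus strand. With scramble siRNA its level was 18.4, 19.2 and 16.1 CPM in Ctrl, 13.2, 11.4 and 12.7 in HS, and 5.44, 5.36 and 5.59 in HS+REC. With siLonp1 it was 88.0, 86.6 and 75.1 CPM in Ctrl, 70.6, 57.6 and 65.9 in HS, and 38.8, 31.3 and 35.7 in HS+REC. The siLonp1 libraries lay above the scramble libraries in each condition with no overlap, and the lowest siLonp1 value after recovery exceeded the highest scramble value at 37 °C. In counts, the scramble libraries held 217 to 912 reads of TAGLN and the siLonp1 libraries 1230 to 3504. The difference was 4.65-fold in Ctrl (log2 2.22, SE 0.09), 5.20-fold in HS (log2 2.38, SE 0.09) and 6.45-fold in HS+REC (log2 2.69, SE 0.10). Ranked from the highest log2 fold change among the 12832 genes, TAGLN was at position 11 at 37 °C, at 10 after HS and at 1 after HS+REC. These values chose the gene and carry no test. Here as elsewhere in bulk RNA, fewer cells expressing a gene and less RNA per cell cannot be told apart.

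The last exons of TAGLN overlap PCSK7, a protease gene on the opposite strand, over 2233 exonic bases between positions 117204337 and 117207160, and the strand setting of the counting is not given. TAGLN also shares 2498 exonic bases with a further annotated gene on the same strand, which no strand setting would separate. PCSK7 was at 49.1 ± 1.48 CPM with scramble and 58.2 ± 3.01 with siLonp1 in Ctrl (mean ± SD, n = 3), at 48.0 ± 5.48 and 55.5 ± 1.60 in HS, and at 46.5 ± 4.21 and 49.3 ± 2.38 in HS+REC. Its siLonp1 fold changes were 1.19, 1.16 and 1.06. The part of shared reads in the level of TAGLN was not tested. Smaller exonic overlaps were found for CNN2 (338 bases, opposite strand), ACTN1 (300 bases, a pseudogene on the same strand) and FLNA (40 bases, opposite strand), and were not tested either.

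Among the other 9 genes, 7 rose with siLonp1 at 37 °C, 1 fell and 1 did not pass the test. Those that rose were MYL9, VCL, CNN2, TPM1, ACTN1, TPM2 and ACTB, and CALD1 fell. Of all 12832 genes 26.3% were called higher and 22.9% lower in the same comparison, by edgeR's quasi-likelihood test at a Benjamini-Hochberg adjusted p of at most 0.05 with no fold limit. At the threshold of the study, which also asks for a change over 2-fold, MYL9 was called, against 2.63% of all genes. The median log2 fold change of the 9 genes was 0.39, from -0.18 to 1.40, and that of all genes 0.01.

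MYL9, the regulatory light chain of smooth muscle and non-muscle myosin II, stood next to TAGLN. Its level at 37 °C was 14.5, 15.0 and 15.0 CPM with scramble and 40.1, 40.4 and 36.4 with siLonp1. In HS the values were 10.9, 10.2 and 9.80 against 31.1, 29.0 and 29.4, and in HS+REC 8.48, 6.99 and 9.30 against 22.1, 15.4 and 19.6. The siLonp1 libraries lay above the scramble libraries in each condition without overlap. MYL9 rose by log2 1.40 (SE 0.10, adjusted p = 1.3e-10) in Ctrl, by 1.53 (SE 0.10, adjusted p = 4.9e-11) in HS and by 1.20 (SE 0.11, adjusted p = 3.8e-09) in HS+REC. It was the only one of the 9 genes past 2-fold in any of the 3 conditions.

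CNN2 encodes calponin 2, an actin binding protein of non-muscle cells. It was at 573, 557 and 552 CPM with scramble and 935, 922 and 831 with siLonp1 in Ctrl, and at 599, 572 and 522 against 789, 800 and 815 in HS. In HS+REC it was at 597, 506 and 532 against 732, 651 and 747 CPM. All siLonp1 values exceeded all scramble values of the same condition, and the scramble values of the 3 conditions overlapped. The log2 rise was 0.68 (SE 0.07, adjusted p = 3.1e-08) in Ctrl, 0.51 (SE 0.07, adjusted p = 1.7e-06) in HS and 0.38 (SE 0.07, adjusted p = 5.7e-05) in HS+REC. CNN2 is one of the 3 genes with a CArG box in the window shown above.

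VCL encodes vinculin, which couples actin filaments to integrin and cadherin adhesions. Its level in Ctrl was 630, 573 and 584 CPM with scramble and 1003, 982 and 966 with siLonp1. In HS it was 460, 445 and 395 against 682, 687 and 713 CPM. In HS+REC it was 386, 358 and 336 against 357, 392 and 411 CPM. The arms were separate in Ctrl and HS and overlapped in HS+REC. VCL rose by log2 0.72 (SE 0.07, adjusted p = 5.8e-09) in Ctrl and by 0.68 (SE 0.07, adjusted p = 1.6e-08) in HS, and the value in HS+REC was 0.10 (SE 0.07, adjusted p = 0.19). VCL shares 1109 exonic bases with AP3M1 on the opposite strand, whose mean level was 153 CPM with scramble and 172 with siLonp1 in Ctrl, 165 and 185 in HS, and 194 and 221 in HS+REC. AP3M1 rose with siLonp1 by log2 0.17, 0.16 and 0.19 in the 3 conditions (highest adjusted p 0.026), as VCL did in Ctrl and HS, and rose by 0.35 in HS+REC averaged over the arms (adjusted p = 1.8e-07). Its part in the VCL counts was not tested.

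TPM1 and TPM2 encode tropomyosins, which lie along actin filaments and control the access of myosin and other partners. TPM1 shares 2645 exonic bases with TPM1-AS and 691 with another noncoding gene, both on the opposite strand, and their part in its counts was not tested. TPM1 was at 129, 122 and 124 CPM with scramble and 159, 167 and 172 with siLonp1 in Ctrl, at 98.0, 99.3 and 103 against 121, 118 and 119 in HS, and at 103, 108 and 106 against 110.4, 108 and 112 in HS+REC. As for VCL, the arms of TPM1 were apart in Ctrl and HS and overlapped after recovery. The log2 difference was 0.41 (SE 0.05, adjusted p = 5.9e-07) in Ctrl, 0.25 (SE 0.05, adjusted p = 0.00023) in HS and 0.06 (SE 0.05, adjusted p = 0.35) in HS+REC. TPM2 rose in all 3 conditions, from 179 ± 2.73 to 222 ± 8.82 CPM in Ctrl, from 182 ± 6.81 to 229 ± 9.82 in HS and from 194 ± 13.5 to 239.6 ± 33.6 in HS+REC (mean ± SD, n = 3). Its log2 values were 0.31, 0.33 and 0.31 (SE 0.07 each; adjusted p = 0.0015, 0.00070 and 0.0014), and the arms overlapped in HS+REC, where 1 siLonp1 library was at 208 CPM and the highest scramble library at 209. With single libraries left out, the HS+REC value of TPM2 ran from 0.19 to 0.399, with a highest adjusted p of 0.026.

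ACTN1, FLNA and ACTB complete the genes that were higher with siLonp1 in at least 1 condition. ACTN1, the filament cross-linker alpha-actinin 1, went from 485 ± 19.3 to 634 ± 30.3 CPM in Ctrl (log2 0.39, SE 0.07, adjusted p = 0.00011). In HS and HS+REC its log2 values were 0.16 (adjusted p = 0.070) and 0.14 (adjusted p = 0.11). FLNA, which encodes filamin A, a large cross-linker that ties actin to membrane receptors, was at 1123, 1131 and 1163 CPM with scramble and 1419.7, 1331 and 1174 with siLonp1 in Ctrl. In HS it was at 965, 1012 and 748 against 807, 1021 and 1010.1, and in HS+REC at 1143, 962 and 992 against 1163, 1205 and 1310.4 CPM. The arms of FLNA overlapped in HS and were apart, by a narrow margin, in Ctrl and HS+REC. Its log2 difference was 0.20 (SE 0.10, adjusted p = 0.098) in Ctrl, 0.06 (adjusted p = 0.64) in HS and 0.25 (SE 0.10, adjusted p = 0.038) in HS+REC, and the call in HS+REC was lost when any of 4 of its 6 libraries was left out, with a highest adjusted p of 0.14. ACTB rose from 7586 ± 292 to 9165 ± 439 CPM in Ctrl, from 6867 ± 318 to 8169 ± 189.7 in HS and from 6248 ± 256 to 7312 ± 455 in HS+REC, with log2 values of 0.27, 0.25 and 0.23 (SE 0.06 each; adjusted p = 0.00039, 0.00074 and 0.0018).

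CALD1 encodes caldesmon, which binds actin, myosin and tropomyosin and inhibits the myosin ATPase. It was the 1 gene of the 9 that fell. Its level was 135, 121 and 131 CPM with scramble and 108, 119.6 and 114 with siLonp1 in Ctrl, 143, 135 and 129 against 118, 121 and 123 in HS, and 145, 146 and 129.8 against 112, 131 and 111 in HS+REC. The arms did not overlap in Ctrl and HS and overlapped in HS+REC, where 1 siLonp1 library exceeded 1 scramble library. The log2 value was -0.18 in Ctrl (SE 0.07, adjusted p = 0.030), -0.17 in HS (SE 0.07, adjusted p = 0.038) and -0.25 in HS+REC (SE 0.07, adjusted p = 0.0039). The calls in Ctrl and HS did not hold when single libraries were left out, since 4 and 5 of the 18 such fits lost them, with highest adjusted p of 0.13 and 0.16.

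In HS, 6 of the 9 genes rose with siLonp1 (ACTB, CNN2, MYL9, TPM1, TPM2 and VCL) against 28.1% of all genes, and 1 fell (CALD1) against 26.7%. MYL9 alone passed 2-fold, as did 2.56% of all genes. In HS+REC 5 rose (ACTB, CNN2, FLNA, MYL9 and TPM2) against 26.8% and 1 fell (CALD1) against 27.3%, with MYL9 past 2-fold against 2.84%. The median log2 fold change of the 9 genes was 0.25 in HS and 0.23 in HS+REC, with 0 for all genes in both.

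**Figure D2:**
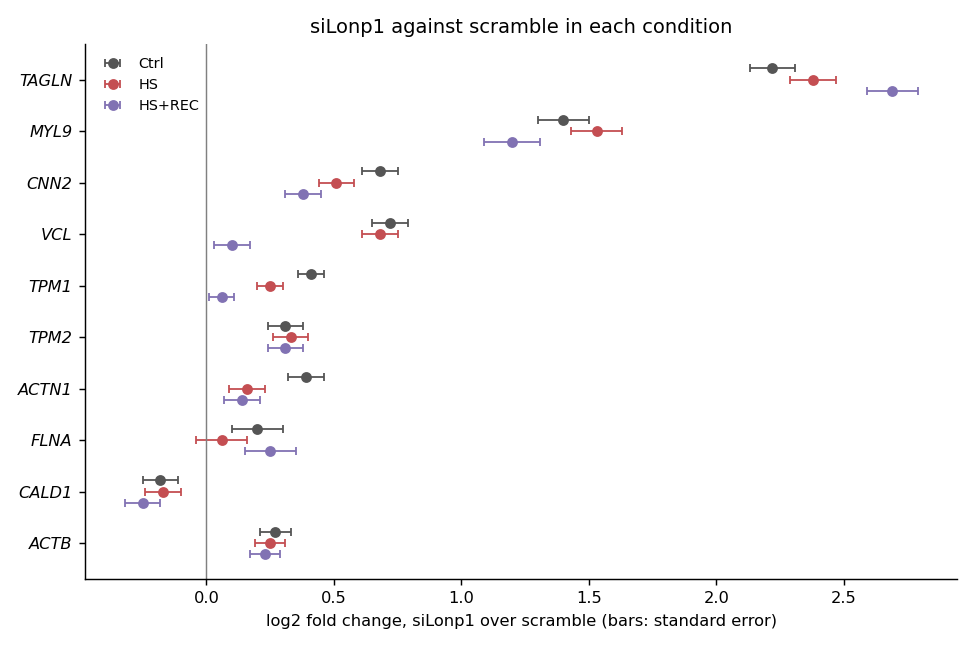
Log2 fold change of siLonp1 over scramble for each of the 10 genes in Ctrl, HS and HS+REC, with bars of 1 standard error from the edgeR fit. TAGLN lies between 2.22 and 2.69 and MYL9 between 1.20 and 1.53, VCL and TPM1 come down to 0.10 and 0.06 in HS+REC, and CALD1 is below 0 in all 3.

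Heat was tested as the change from Ctrl averaged over both siRNA arms, which uses none of the siLonp1 difference by which TAGLN was picked. In HS, 6 of the 10 genes fell (VCL, MYL9, TAGLN, TPM1, FLNA and ACTB) against 26.8% of all genes called lower, and 0 rose against 24.7% called higher. The largest falls in HS were those of VCL (log2 -0.48, SE 0.05, adjusted p = 5.9e-09), MYL9 (-0.45, SE 0.07, adjusted p = 1.1e-05) and TAGLN (-0.44, SE 0.06, adjusted p = 3.2e-06). TPM1 and FLNA fell by 0.40 each on the log2 scale (adjusted p = 1.7e-09 and 4.2e-05). ACTB changed by -0.15 (adjusted p = 0.0024). CNN2, ACTN1, TPM2 and CALD1 had log2 values between -0.08 and 0.08 with adjusted p of 0.17 or more, CNN2 and ACTN1 both on the negative side. By arm, ACTN1 was at 0.03 with scramble (adjusted p = 0.78) and fell by 0.20 with siLonp1 (adjusted p = 0.027), and CNN2 was at 0.01 (adjusted p = 0.94) and -0.16 (adjusted p = 0.060). The interactions with HS did not pass for either gene (adjusted p = 0.27 and 0.42).

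FLNA in HS was read with 2 HS libraries that were low over long transcripts. HS scramble replicate 3, at 748 CPM, and HS siLonp1 replicate 1, at 807 CPM, were the lowest FLNA values of all 18 libraries. In these 2 libraries the median deviation from the group mean over the 2153 genes with transcripts over 6 kb was -0.08 and -0.09 on the log2 scale, and over the 2965 genes under 2 kb it was 0.08 and 0.07. Without both, a fit added after the data were seen, the HS value of FLNA was -0.27 (adjusted p = 0.00035). HS+REC scramble replicate 3 and HS+REC siLonp1 replicate 1 were lower still over the long transcripts, at -0.11 and -0.10, and their FLNA values deviated by -0.05 and -0.07, against -0.27 and -0.22 in the 2 HS libraries. The part of this length difference in the level of FLNA, whose canonical transcript has 8507 bases, was not tested.

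In HS+REC, averaged over both arms, 7 of the 10 genes were lower than in Ctrl (TAGLN, VCL, MYL9, TPM1, ACTB, ACTN1 and CNN2) against 30.3% of all genes, and 0 were higher against 29.1%. TAGLN fell by 1.47 on the log2 scale (SE 0.07, adjusted p = 6.5e-15), from 50.6 to 20.4 CPM as means over both arms, and was at position 14 from the lowest of the 12832 genes. VCL fell by 1.04 (SE 0.05, adjusted p = 4.3e-15), from 789.7 to 373 CPM. These were the 2 genes past 2-fold, a threshold passed downward by 0.842% of all genes. MYL9 fell by 0.94 (SE 0.07, adjusted p = 1.1e-10), from 26.9 to 13.6 CPM. TPM1 fell by 0.42, ACTB by 0.30, ACTN1 by 0.25 and CNN2 by 0.19 on the log2 scale, with a highest adjusted p of 0.0016 for CNN2. By arm, CNN2 was at -0.04 with scramble (adjusted p = 0.65) and -0.34 with siLonp1 (adjusted p = 0.00023), and ACTN1 at -0.12 (adjusted p = 0.17) and -0.37 (adjusted p = 0.00013), so both passed with siLonp1 and missed the threshold with scramble. The difference between the arms did not pass for either gene (adjusted p = 0.14 and 0.26). FLNA, CALD1 and TPM2 had values of -0.12, 0.08 and 0.11 (adjusted p = 0.15, 0.14 and 0.071).

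From HS to HS+REC, the hour back at 37 °C, 5 genes fell against 20.1% of all genes, and 1 rose against 21.7%. The 5 were TAGLN (log2 -1.03, SE 0.07, adjusted p = 1.9e-11), VCL (-0.56, SE 0.05, adjusted p = 8.6e-10), MYL9 (-0.48, SE 0.07, adjusted p = 1.1e-05), ACTN1 (-0.16, adjusted p = 0.011) and ACTB (-0.15, adjusted p = 0.0044). TAGLN was the 1 gene past 2-fold, against 0.686% of all genes. FLNA rose by 0.28 (SE 0.07, adjusted p = 0.0022), and by 0.16 (adjusted p = 0.026) without the 2 HS libraries named above. TPM1 differed between HS+REC and HS by -0.02 (SE 0.04, adjusted p = 0.76), an average over arms whose means went from 100.05 to 106 CPM with scramble and from 119 to 110.1 CPM with siLonp1. The step from HS to HS+REC was not tested by arm. The comparisons of HS and of HS+REC with Ctrl share the Ctrl libraries.

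**Figure D3:**
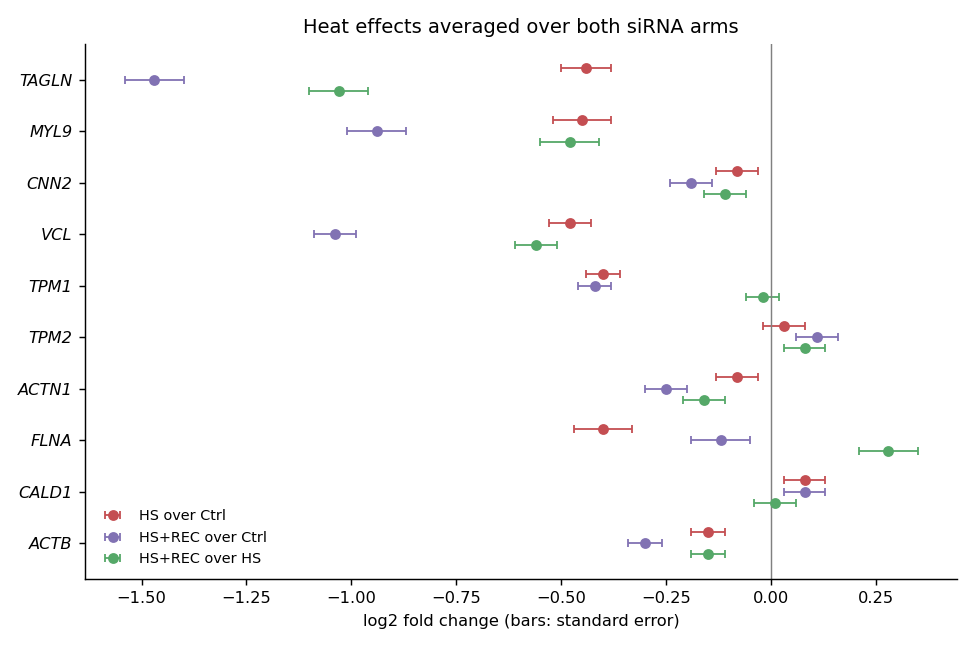
Log2 fold change averaged over both siRNA arms for HS over Ctrl, HS+REC over Ctrl and HS+REC over HS, with bars of 1 standard error. TAGLN, MYL9 and VCL lie furthest to the left in HS+REC over Ctrl, at -1.47, -0.94 and -1.04, TPM1 stands at about the same place in HS and HS+REC, and FLNA is to the right of 0 in HS+REC over HS.

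Whether heat acted differently in the siLonp1 arm was tested by the interaction terms of this model. For HS, 0 of the 9 genes passed in either direction, where 0.475% of all genes were called upward and 1.39% downward. DESeq2 also called 0 at its adjusted p. At an unadjusted p under 0.05, 2 of the 9 passed in edgeR, TPM1 (log2 -0.16) and ACTN1 (-0.23), as did 1951 of the 12832 genes. For HS+REC, 2 genes were called downward, VCL and TPM1, against 0.896% of all genes, and 0 upward against 0.686%. CNN2 (-0.29, adjusted p = 0.14) and ACTN1 (-0.25, adjusted p = 0.26) also had an unadjusted p under 0.05 and missed the adjusted threshold. With VCL and TPM1 this made 4 of the 9 under an unadjusted 0.05, as were 1743 of the 12832 genes.

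VCL fell after HS+REC by 0.73 on the log2 scale (SE 0.07) with scramble, from 596 ± 30.2 to 359.9 ± 25.3 CPM, and by 1.35 (SE 0.07) with siLonp1, from 984 ± 18.5 to 387 ± 27.0 CPM. The difference between the arms was -0.62 (SE 0.09, adjusted p = 0.0021). TPM1 fell by 0.24 with scramble, from 125 ± 3.71 to 106 ± 2.54 CPM, and by 0.59 with siLonp1, from 166 ± 6.65 to 110.1 ± 2.12 CPM, a difference of -0.35 (SE 0.07, adjusted p = 0.012). In both genes the 2 arms started apart and ended with overlapping libraries. The interaction of TAGLN, which is not tested, was 0.47 (SE 0.14) in the other direction, with a fall of 1.71 with scramble and 1.24 with siLonp1. MYL9 fell by 0.84 with scramble and 1.03 with siLonp1 (interaction -0.19, SE 0.15, adjusted p = 0.61).

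**Figure D4:**
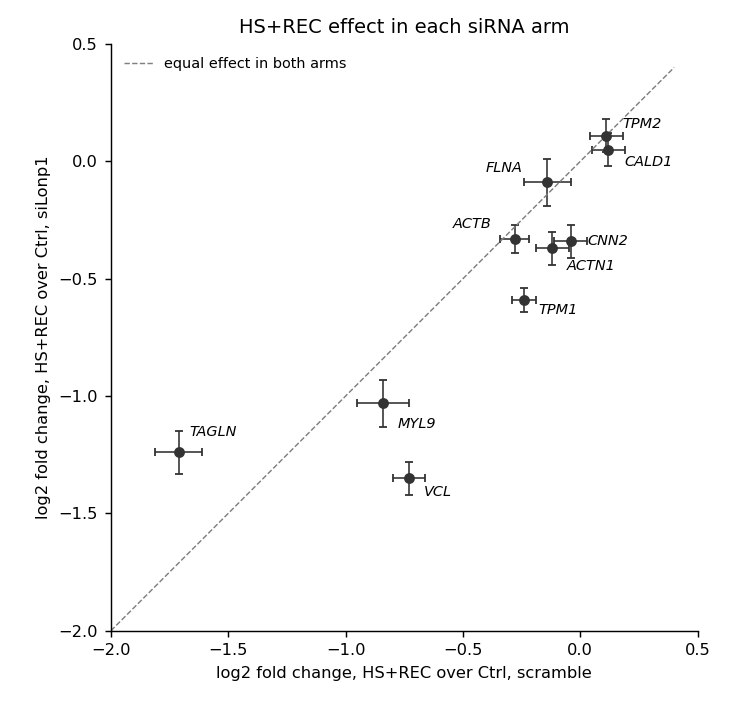
HS+REC effect in the scramble arm (x axis) and in the siLonp1 arm (y axis) as log2 fold change over the Ctrl of the same arm, with bars of 1 standard error and a dashed line where both are equal. VCL, at -0.73 and -1.35, and TPM1, at -0.24 and -0.59, lie below the line and passed the test of the difference, and TAGLN, not tested, lies above it at -1.71 and -1.24.

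The genes also varied in how closely they followed each other across the 18 libraries. Pearson's r of log2 CPM, given as a description over libraries that share 6 groups, was 0.98 between TAGLN and MYL9, 0.92 between TAGLN and CNN2 and 0.90 between TAGLN and ACTB. VCL was closest to ACTB (0.90) and TPM1 to VCL (0.88). FLNA had no r above 0.54 with any other of the 10, and CALD1 was negative with all of them, from -0.39 with FLNA to -0.83 with MYL9. Among all 12831 other genes tested, the 5 whose pattern was most like that of TAGLN were IL23A (r = 0.993), SRF (0.989), PDGFB (0.988), FOSL1 (0.987) and POLR3E (0.987). These encode an interleukin 23 subunit, serum response factor itself, a platelet-derived growth factor chain, an AP-1 subunit and a subunit of RNA polymerase III. MYL9 was at position 10, CNN2 at 233, ACTB at 343 and CALD1 at 12091 of the 12831. Each r with TAGLN includes the siLonp1 difference by which TAGLN was picked. The ranking therefore favours genes that also rise with siLonp1 and carries no test.

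SRF was at 157 CPM with scramble and 265 with siLonp1 at 37 °C, at 139 and 237 after HS and at 108 and 196 after HS+REC, as group means of 3 libraries. The log2 difference with siLonp1 was 0.76 (adjusted p = 3.5e-09), 0.77 (adjusted p = 3.0e-09) and 0.86 (adjusted p = 4.4e-10) in the 3 conditions, and the change averaged over the arms was -0.16 in HS (adjusted p = 0.0053) and -0.49 in HS+REC (adjusted p = 4.1e-09). Of its cofactors, MRTFA (listed as MKL1) rose by 0.32 in Ctrl (adjusted p = 0.0027) and had values of 0.05 and -0.11 in HS and HS+REC (adjusted p = 0.63 and 0.26). MRTFB (listed as MKL2) fell in each condition, by 0.43, 0.55 and 0.67 on the log2 scale, with a highest adjusted p of 0.0046. Of the 6 tested genes in the list of SRF and cofactors 3 rose and 1 fell at 37 °C, against 26.3% and 22.9% of all genes, and 1 rose and 1 fell in HS and in HS+REC. The latter shares lie below those of all genes, 28.1% and 26.8% called higher and 26.7% and 27.3% called lower. Averaged over the arms, 3 of the 6 fell and 0 rose in HS, against 26.8% and 24.7% of all genes, and 5 fell and 1 rose in HS+REC, against 30.3% and 29.1%. MYOCD, the cofactor of muscle, did not pass the filter.

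A list of 24 further actomyosin genes was examined beside the 10, of which 18 passed the filter. With siLonp1, 14 of the 18 rose and 1 fell in Ctrl, 13 rose and 1 fell in HS, and 14 rose and 1 fell in HS+REC. Of all genes 26.3%, 28.1% and 26.8% were called higher and 22.9%, 26.7% and 27.3% lower. The list had medians of 0.50, 0.44 and 0.38 on the log2 scale. FLNC, a filamin known from muscle, rose by 1.71, 1.37 and 1.84 in the 3 conditions, TLN1, which encodes the integrin activator talin, by 1.50, 1.54 and 1.58, and ZYX, which encodes the focal adhesion protein zyxin, by 1.31, 1.32 and 1.20. The largest adjusted p of these 9 values was 7.7e-10. MYLK, the kinase that phosphorylates the light chain encoded by MYL9, was the gene that fell, from 3.29 to 1.51 CPM in Ctrl (log2 -1.13, adjusted p = 4.9e-07). CNN3, a close relative of CNN2, rose by 0.56 in Ctrl and by 1.06 in HS+REC, with an interaction of 0.50 (adjusted p = 0.0037), the reverse sign to the value of CNN2. ACTG1, the gamma actin gene most like ACTB, rose by 0.47, 0.41 and 0.37, with a highest adjusted p of 2.7e-05. Averaged over the arms, 7 of the 18 fell and 1 rose in HS, against 26.8% and 24.7% of all genes, and 11 fell and 3 rose in HS+REC, against 30.3% and 29.1%, with FLNC up by 1.57 (adjusted p = 3.8e-14).

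Other known SRF targets outside the contractile machinery were read in a list of 20 genes that all passed the filter. With siLonp1, 19 of the 20 rose and 0 fell in Ctrl, against 26.3% and 22.9% of all genes, with FHL1, a LIM protein of muscle and adhesions, at 1.22, FOSB at 1.15, EGR3 at 1.06 and ANKRD1 at 1.05 on the log2 scale. In HS 16 rose and 1 fell, against 28.1% and 26.7%, and in HS+REC 16 rose and 0 fell, against 26.8% and 27.3%. FHL1 was at 1.37 in HS and 1.34 in HS+REC, where ANKRD1 was at 1.24 and FOSB at 1.06. CTGF, a matricellular protein gene, did not pass in Ctrl (0.03, adjusted p = 0.81) or HS+REC (-0.18, adjusted p = 0.085) and was the gene that fell in HS (-0.32, adjusted p = 0.0049). The medians of the list were 0.65, 0.64 and 0.62 in the 3 conditions. Averaged over the arms, 14 of 20 rose and 4 fell in HS, against 24.7% and 26.8% of all genes. The rises were led by the immediate early genes FOS (log2 5.97), EGR2 (4.96), EGR1 (4.56) and EGR3 (3.77), with a highest adjusted p of 4.0e-20. In HS+REC 13 rose and 5 fell, against 29.1% and 30.3%, with EGR2 at 2.25, FOS at 2.12, ANKRD1 at 1.59 and FOSB at 1.41 as the highest. From HS to HS+REC 11 fell and 4 rose, against 20.1% and 21.7%. Of the 20 genes, 2 had a called interaction with HS, both downward, CYR61 at -0.67 (adjusted p = 0.012) and EGR1 at -0.60 (adjusted p = 0.038), against 0.475% of all genes upward and 1.39% downward. With HS+REC 1 was called upward and 1 downward, against 0.686% and 0.896%. ITGA5, an integrin subunit gene, had an interaction with HS+REC of 0.52 (adjusted p = 0.020). EGR3 had one of -1.05 (adjusted p = 0.0026), from 7.85 to 28.8 CPM with scramble and from 16.4 to 28.9 CPM with siLonp1.

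**Figure D5:**
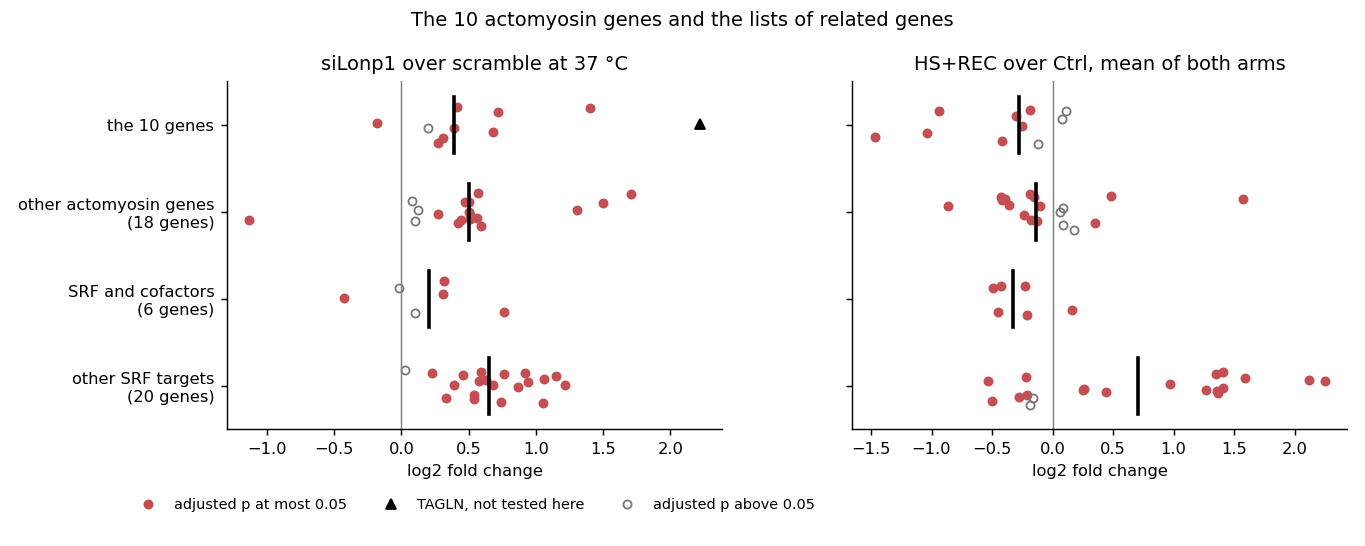
Log2 fold change of siLonp1 over scramble at 37 °C (left) and of HS+REC over Ctrl averaged over both arms (right) for the 10 genes and for 3 lists of related genes. Each point is a gene, filled where the adjusted p is at most 0.05, the black bar is the median of the tested genes, at 0.39 for the 9 genes tested on the left, and most points of each row lie right of 0 on the left panel.

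These lists were drawn up with results of these data known, so their counts are a description.

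Markers of cell types were read because several of the 10 genes are known from smooth muscle and fibroblasts. The epithelial markers KRT8, KRT18, KRT19, EPCAM, CDH1 and VIL1 were expressed in every group, and the summed level of the 9 listed markers was 8758 to 12133 CPM per library. CDX1 was at 0 in all libraries, and CDX2 fell with siLonp1 by 0.90 on the log2 scale at 37 °C, by 1.38 after HS and by 1.07 after HS+REC (highest adjusted p 2.1e-08). CDH1 rose by 0.62, 0.62 and 0.49 (highest adjusted p 3.5e-07). KRT20 was higher by 1.03, 1.07 and 0.91, at group means of 0.425 to 0.472 CPM with scramble and 0.810 to 0.973 with siLonp1. The filter asks for a CPM above 1 in 3 libraries, so KRT20 leaned on its siLonp1 libraries to pass. Its rise is therefore given with no test. Of the 8 epithelial markers tested, 3 rose and 1 fell in Ctrl, 6 rose and 1 fell in HS, and 2 rose and 2 fell in HS+REC, where 26.3%, 28.1% and 26.8% of all genes were called higher and 22.9%, 26.7% and 27.3% lower. The rises counted include KRT20 in each condition, and the HS+REC counts are near those shares. Of the 7 smooth muscle markers, MYH11, CNN1, ACTG2, LMOD1 and SYNPO2 stayed under 1 CPM in every library and were not tested, and DES and SMTN passed the filter. Within that low range ACTG2, the enteric smooth muscle actin, whose near-identical actin paralogs make its counts uncertain, had mean levels of 0.160 CPM with scramble and 0.798 with siLonp1 in Ctrl, 0.228 and 0.832 in HS, and 0.162 and 0.431 in HS+REC, higher with siLonp1 as TAGLN was. MYH11 and CNN1 were also higher in each condition, LMOD1 was lower in each, and SYNPO2 was lower in Ctrl and higher in HS and HS+REC. ACTA2, an untested actin of the actomyosin list, was lower with siLonp1, at 0.880 and 0.530 CPM in Ctrl, 0.666 and 0.522 in HS, and 0.832 and 0.715 in HS+REC. DES was higher with siLonp1 by 0.83, 0.77 and 0.87 on the log2 scale in the 3 conditions, the direction of TAGLN. Its group means were 0.717 to 0.877 CPM with scramble and 1.27 to 1.57 with siLonp1. DES too leaned on its siLonp1 libraries to pass the filter, so its values are a description with no test. SMTN was at 0.05 (adjusted p = 0.62) in Ctrl and fell by 0.31 after HS and by 0.30 after HS+REC (highest adjusted p 0.0031). The summed level of this list was 110 to 117 CPM in Ctrl scramble and 108 to 126 in Ctrl siLonp1, 104 to 123 and 92.6 to 97.5 in HS, and 102 to 123 and 84.9 to 100.1 in HS+REC, and was made up almost wholly by SMTN. Of 6 fibroblast markers, 3 passed the filter and 1 was at 0 in all libraries. LUM fell with siLonp1 by 1.49 at 37 °C and by 1.36 after HS and after HS+REC. PDGFRB rose by 1.17, 1.03 and 1.12, at low group means of 0.979 to 2.63 CPM. COL1A1 did not pass with siLonp1, at 0.08, -0.05 and 0.15 (lowest adjusted p 0.21). The summed fibroblast level was 41.3 to 47.2 CPM in Ctrl scramble and 23.5 to 25.0 in Ctrl siLonp1, 42.3 to 46.1 and 26.3 to 30.6 in HS, and 61.6 to 63.1 and 47.2 to 48.7 in HS+REC. COL1A1 rose by 1.75 on the log2 scale in HS+REC averaged over the arms (adjusted p = 1.8e-15), from 9.21 to 30.2 CPM with scramble. The part of these marker differences in the values of the 10 genes was not tested.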

How the data were processed

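RNAseq libraries of SW620 cells were made by the authors with a stranded mRNA kit, sequenced as paired ends, aligned to hg38 with STAR 2.7.3a and counted on UCSC genes with featureCounts in R 3.6.3, per the methods and the submitters' processing notes. The strand setting, the treatment of reads shared by genes and the annotation release are not given in the sources used here. The counts deposited by the authors are not normalized and cover 26485 gene symbols in 18 libraries. All columns were matched to samples by name.

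Genes were kept where at least 3 libraries had a CPM above 1, which left 12832. The test was that of edgeR 4.0.16 (R 4.3.3), with TMM factors (0.934 to 1.06), 1 mean per group over all 18 libraries, quasi-likelihood tests, and Benjamini-Hochberg adjustment over all genes, with calls at an adjusted p of at most 0.05. Adjusted p values in the text are from this fit unless DESeq2 is named. CPM are TMM-scaled, and log2 fold changes use a prior count of 0.125. No 2 libraries of a group agreed within counting error. The 10 genes were named in every comparison. From the lists, genes past 2-fold in a siLonp1 effect or in the averaged HS or HS+REC effect were named, up to 4 per list and comparison, together with SRF, MRTFA, MRTFB and the 5 genes most like TAGLN. CNN3 and ACTG1 values beyond that rule, ACTG2, ACTA2, CTGF, CYR61, ITGA5, the interactions of EGR1 and EGR3, DES, SMTN, the directions of the other smooth muscle markers, the siLonp1 values of COL1A1 and the epithelial markers were chosen after their values were seen. 1 further list is not reported here. The 10 genes, the lists and the tests were chosen with earlier results of these data known. Positions, overlaps and transcript lengths are from GENCODE 44, and promoter windows from RefSeq (GRCh38.p14). The alternatives were RLE size factors, total counts only, no filter, CPM above 1 in all libraries, DESeq2 1.42.0, an FDR of 0.01, the replicate block, only the groups compared, a prior count of 2 and each library left out. Leaving out 2 HS libraries together was added after the data were seen.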

Additional observations from a re-analysis of the deposited data

Results flagged for a closer look

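The effect of HS+REC differed between the siRNA arms in 2 of the 9 genes tested, both downward, against 0.896% of all genes called downward and 0.686% upward. For VCL the fall was larger with siLonp1 than with scramble, with an interaction of -0.62 on the log2 scale (SE 0.09, adjusted p = 0.0021, edgeR interaction term), and all 3 siLonp1 and all 3 scramble libraries were lower in HS+REC than in Ctrl. Leaving out each library in turn gave values between -0.67 and -0.57 and adjusted p from 0.00046 to 0.011, and DESeq2 gave -0.60 (adjusted p = 9.7e-07). For TPM1 the difference was -0.35 (SE 0.07, adjusted p = 0.012), with all 3 libraries of both arms lower in HS+REC than in Ctrl. The range without single libraries was -0.38 to -0.33 with adjusted p from 0.0080 to 0.045, and DESeq2 gave -0.34 (adjusted p = 0.00013). Both genes share exonic bases with genes on the opposite strand, 1109 in VCL and 2645 and 691 in TPM1, and the strand setting of the counting is not given.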

How the results depend on the processing

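Of the 80 log2 values of the 10 genes, none changed its call under the replicate block, where the interactions of VCL and TPM1 with HS+REC were -0.62 (adjusted p = 0.0038) and -0.35 (adjusted p = 0.020). Deviations of same-numbered libraries from their group means correlated between -0.379 and 0.462 (median -0.022). Those of libraries with unlike numbers correlated between -0.408 and 0.561 (median 0.0225). A stricter count, of libraries closest to their own number in every other group at once, gave 0 of 18 and cannot by itself decide whether the numbers pair the libraries. Counts of called genes stayed within 1.5 times of those reported under all settings run, except for the interaction with HS+REC, which fell from 2 genes to 1 at an FDR of 0.01. Leaving out each library in turn gave 7 to 9 called genes for siLonp1 in Ctrl, 6 to 7 in HS and 5 to 6 in HS+REC, and 6 to 6, 7 to 8 and 6 to 7 for the averaged heat effects. Scaling by total counts only moved the median of all genes by at most -0.10, the value in HS with siLonp1. Signs turned only in values that missed the threshold. With total counts only these were FLNA with siLonp1 in HS (-0.039), TPM1 with siLonp1 in HS+REC (-0.013), TPM2 in averaged HS (-0.004), CALD1 in HS+REC over HS (-0.035), and the interactions with HS of TPM2 (-0.002) and CALD1 (-0.01). CALD1 in HS+REC over HS also turned with no filter (-0.008) and without the 2 HS libraries low in long transcripts (-0.029), and so did its interaction with HS in the latter fit (-0.013). The interaction of TPM2 with HS+REC was 0.012 with RLE size factors and with DESeq2. Without single libraries, FLNA with siLonp1 in HS ran from -0.072 to 0.161 and CALD1 in HS+REC over HS from -0.032 to 0.036. The interactions with HS ran from -0.011 to 0.055 for TPM2, -0.118 to 0.001 for VCL, -0.032 to 0.056 for CALD1 and -0.07 to 0.018 for ACTB, and those with HS+REC from -0.123 to 0.089 for TPM2 and -0.024 to 0.127 for FLNA. The cause was not tested. FLNA with siLonp1 in Ctrl, uncalled in the report, passed with no filter (adjusted p = 0.0091), in the fit of only the groups compared (0.0034), without the 2 HS libraries (0.018), and without Ctrl siLonp1 replicate 3 (0.043) or HS scramble replicate 3 (0.047), and its call in HS+REC was lost with total counts only (0.14). The calls of CALD1 in Ctrl and HS were lost with no filter (0.051 and 0.064). Other values uncalled in the report passed as follows (adjusted p): ACTN1 with siLonp1 in HS with no filter (0.037) and on leaving out the siLonp1 replicate 1 of HS (0.036) or its scramble replicate 1 (0.039) or 2 (0.0496), ACTN1 in averaged HS with total counts only (0.047), TPM2 in averaged HS+REC with CPM above 1 in all libraries (0.043) and without HS+REC scramble replicate 2 (0.043) or HS+REC siLonp1 replicate 2 (0.0055), TPM2 in HS+REC over HS without the latter (0.035), FLNA in averaged HS+REC with total counts only (0.020) and no filter (0.028), CNN2 in HS+REC over HS with total counts only (0.011), no filter (0.025), without the 2 HS libraries (0.018) and without HS scramble replicate 3 (0.016), HS+REC scramble replicate 1 (0.014) or HS+REC siLonp1 replicate 1 (0.043) or 3 (0.044), and the interaction of CNN2 with HS+REC with no filter (0.0496).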
